A study of Mus musculus with 4 samples.

Results

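The immunity-related GTPases (IRG) are interferon-inducible GTP-binding proteins, and 7 of their genes are described here across 4 mouse RNA-seq libraries: Irgm1, Irgm2, Igtp, Tgtp1, Tgtp2, Ifi47 and Iigp1. They are 7 of the 33783 genes with a symbol in the tables. The set was chosen by FPKM (a transcript level corrected for its length and for the depth of the library) that had already been seen to differ between the genotypes in these libraries, so the genotype differences below describe the set and were not tested. The embryo tables hold 6 of the 7 genes, all on chromosome 11, and the liver tables hold all 7.

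Embryonic age E11.5 is represented by a whole embryo library of genotype Adar1-/- Mavs-/- and another of genotype Adar1-/-, and age E15.5 by an embryonic liver library of each genotype. Below, dKO-labelled and KO-labelled liver stand for the liver libraries with the labels Adar1-/- Mavs-/- and Adar1-/-. Every library carries the Adar1-/- label, so no library is labelled as having intact Adar1, and the groups of a tissue differ by the Mavs label. The strain label reads C57B16/N in embryos, whereas livers have C57B6/J. Each group has 1 library. ADAR1 (gene Adar) deaminates adenosines of double-stranded RNA. MAVS relays the alarm of the cytosolic sensors RIG-I and MDA5, which switches on type I interferon. The alleles, the number of animals per library and the cells in which the genes were lost are not stated by the labels.

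Interferons bind cell-surface receptors and act through JAK kinases on STAT transcription factors. Type I interferon leads mainly to a complex that includes STAT2 and IRF9 and binds interferon-stimulated response elements (ISRE), and interferon gamma leads to binding at gamma-activated sites (GAS). IRF1, itself induced, binds ISRE-like sites and maintains many of these genes. IRG proteins form regulators and effectors: Irgm1, Irgm2 and Igtp (also Irgm3) sit on the cell's own membranes and hold the effectors inactive there, whereas Tgtp1 and Tgtp2 (Irgb6), Ifi47 (Irgd) and Iigp1 (Irga6) can coat and break the vacuole around intracellular parasites such as Toxoplasma in mice.

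The split between regulators and effectors is written in the phosphate-binding loop, the stretch of the GTPase that holds the nucleotide. The coding stretch for its 8 codons is shown for the chromosome 11 genes, from the GENCODE M21 transcripts, with the codon that separates the classes in capitals. It reads ATG (methionine) in the regulators, called GMS proteins, and AAG (lysine) in the effectors, called GKS proteins.
Irgm1: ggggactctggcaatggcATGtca
Irgm2: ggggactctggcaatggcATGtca
Igtp: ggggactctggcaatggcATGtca
Tgtp1: ggggaaacaggcgcagggAAGtcc
Tgtp2: ggggaaacaggcgcagggAAGtcc
Ifi47: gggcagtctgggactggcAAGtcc
The stretch was the same, base for base, in the 3 GMS genes and in the Tgtp1 and Tgtp2 pair. Over whole coding sequences, pairs of GMS genes were 64.0% to 67.9% identical, and a GMS gene and a GKS gene were 52.0% to 54.2% identical. Tgtp1 and Tgtp2 were 99.7% identical, with 4 mismatches over 1245 bases. Reads from these 2 genes may therefore be shared between them, and their sum is given beside their separate values.

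The promoters are shown because 4 members hold the same pair of interferon motifs. RefSeq promoter windows (GRCm38.p6, from 250 bases before the start site to 50 bases after it) were found for the 6 chromosome 11 members and searched on both strands for the ISRE core, which is GAAA, any 2 bases and GAAA, and for the GAS pattern TTCNNNGAA. Matches are in capitals in the 100 bases from base -110 to base -11 relative to the start, on the gene's strand.
Irgm1: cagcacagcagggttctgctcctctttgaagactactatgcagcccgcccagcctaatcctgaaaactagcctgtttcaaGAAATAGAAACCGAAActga
Irgm2: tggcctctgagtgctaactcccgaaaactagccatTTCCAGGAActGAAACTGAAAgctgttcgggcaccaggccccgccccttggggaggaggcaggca
Igtp: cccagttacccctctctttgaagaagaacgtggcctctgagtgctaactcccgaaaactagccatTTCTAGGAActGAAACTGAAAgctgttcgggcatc
Tgtp1: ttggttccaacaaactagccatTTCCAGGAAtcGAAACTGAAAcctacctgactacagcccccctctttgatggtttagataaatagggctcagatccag
Tgtp2: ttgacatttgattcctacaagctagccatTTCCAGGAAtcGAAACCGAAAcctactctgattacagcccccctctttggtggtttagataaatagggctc
These stretches lie at chr11:48871431-48871530 (minus strand) for Irgm1, chr11:58214867-58214966 (plus) for Irgm2, chr11:58199446-58199545 (plus) for Igtp, chr11:48992257-48992356 (minus) for Tgtp1 and chr11:49064223-49064322 (minus) for Tgtp2. In Irgm2, Igtp, Tgtp1 and Tgtp2 the GAS pattern starts 11 bases before the ISRE core, so the motifs stand side by side in the same order. Irgm1 has 2 overlapping ISRE cores, starting 30 and 24 bases before the start site, and no GAS pattern in the window. The window of Ifi47 held neither.

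**Figure D1:**
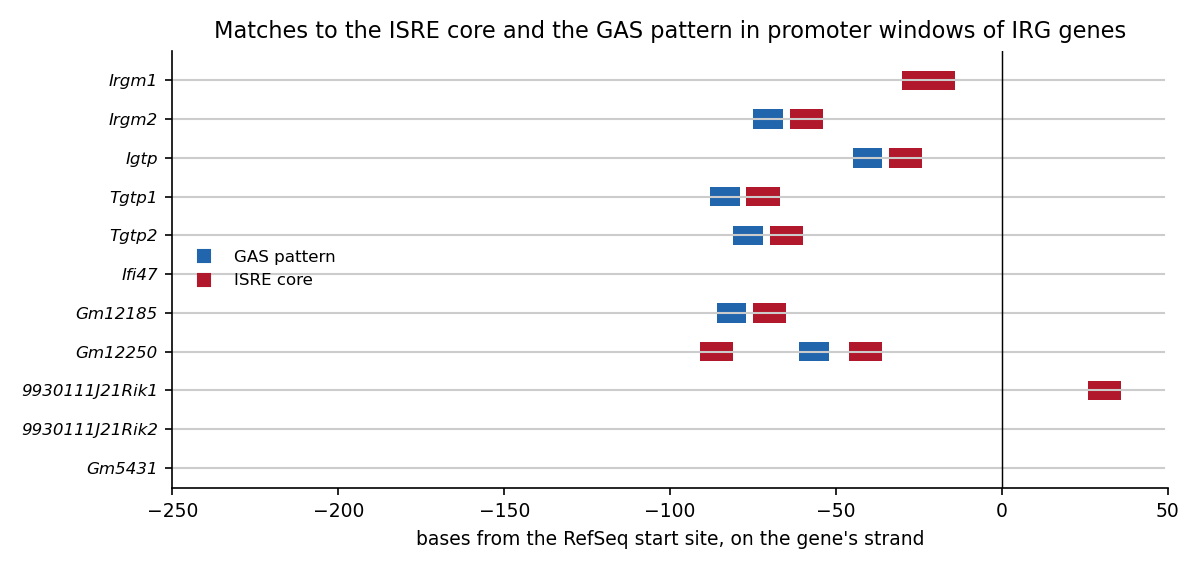
Positions of the ISRE core and the GAS pattern in RefSeq promoter windows of the 6 members and of 5 other IRG genes of the same chromosome. The x axis gives bases from the start site on the gene's strand, and each row is a gene. Irgm2, Igtp, Tgtp1, Tgtp2 and Gm12185 show the GAS pattern just upstream of the ISRE core, and Ifi47 shows no match.

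Over all 32851 RefSeq windows of the same length, 3.44% held the ISRE core, 8.3% held the GAS pattern and 0.454% held both. The GAS pattern started 11 bases before the ISRE core in 5 windows, or 0.0152% of all, and these were the 4 members and Gm12185, an IRG gene between Irgm1 and Tgtp1. No window held that arrangement on the other strand. The spacing was picked after the members' sequences had been seen, and the members share ancestry, so the count is a description. Gm12185 was listed at 0 FPKM in both embryo libraries, at 0.0263 FPKM in dKO-labelled liver and at 0 in KO-labelled liver.

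Some facts of the libraries bear on all values. Coverage per FPKM, which follows depth, ran from 3.48 to 8.58 over the 4 libraries, and no read totals were used here. In liver, Adar stood at 4.11 FPKM (bounds 3.86 to 4.36) in dKO-labelled liver and at 5.56 FPKM in KO-labelled liver. Of 8 annotated Adar transcripts, 3 were above 0 in dKO-labelled liver, against 0 in KO-labelled liver. In KO-labelled liver the longest stretch spanned by no isoform above 0 was 16246 of the gene's 38425 bases, and in dKO-labelled liver it was 0. Spans include introns, so a missing exon inside an isoform would not show. The liver libraries share the Adar1-/- label but differ in these Adar values. The alleles are not stated, so the values cannot settle whether the label of dKO-labelled liver holds, and it is treated with caution. Liver differences are therefore differences between libraries with these labels. Mavs stood at 9.96 and 7.26 FPKM in the same order, and which bases of Mavs were deleted is not given, so its level checks nothing. Adar and Mavs were not analysed here for embryos.

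The liver libraries also differed in cell type markers. The 5 skeletal muscle markers measured summed to 0.771 FPKM in dKO-labelled liver and to 61.4 FPKM in KO-labelled liver. The 10 macrophage markers summed to 233.0 and 178.3 FPKM in the same order, with Cd68 at 0 in KO-labelled liver. The 6 hepatocyte markers summed to 11657 and 9565.9 FPKM, so both libraries carry the liver label's defining genes, and the 5 endothelial markers summed to 46.3 and 76.5 FPKM. T and NK cell markers, from cells that make interferon gamma, summed to 2.79 and 2.96 FPKM. In embryos, where fewer markers lie in the tables, Cd68 and Lyz2 summed to 3.91 FPKM in Adar1-/- Mavs-/- and 0.960 FPKM in Adar1-/-, 3 endothelial markers to 29.9 and 30.4 FPKM, and Vtn, the hepatocyte marker measured, stood at 11.8 and 97.1 FPKM. The part of these cell types in the IRG differences was not tested, and in bulk tissue fewer cells of a type and less RNA per cell cannot be told apart.

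In embryos, every one of the 6 IRG genes measured was far lower in Adar1-/- Mavs-/-. Together they came to 1.52 FPKM in Adar1-/- Mavs-/- embryos and 151.7 FPKM in Adar1-/- embryos, a sum 74.4-fold lower in Adar1-/- Mavs-/- after scaling. No member reached 1 FPKM in Adar1-/- Mavs-/- embryos, and all 6 did in Adar1-/- embryos. Ratios below are log2 of FPKM plus 1, Adar1-/- Mavs-/- over Adar1-/-. The Adar1-/- Mavs-/- values were first multiplied by a factor that centres genes reaching 5 FPKM in both libraries on a median of 0, that is, 1.337 in embryos (973 genes) and 0.9953 in liver (6889 genes). With 1 library per group no p-value was computed, and the deposited bounds cover estimation within a library only.

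Among the 3 regulators, Irgm1 and Igtp had the highest levels in Adar1-/- embryos. Irgm1, which acts in lysosomal and mitochondrial turnover and in restraint of the effectors, had 0.437 FPKM (bounds 0.228 to 0.646) in Adar1-/- Mavs-/- embryos, against 69.9 FPKM (67.3 to 72.6) in Adar1-/- embryos. Igtp, the regulator of the endoplasmic reticulum and lipid droplets, had 0.777 FPKM (0.609 to 0.945) in Adar1-/- Mavs-/- embryos, against 46.6 FPKM (44.9 to 48.2) in Adar1-/- embryos. Irgm2, the regulator found on the Golgi, had 0.113 FPKM (0.0655 to 0.161) in Adar1-/- Mavs-/- embryos, against 10.4 FPKM (7.53 to 13.8) in Adar1-/- embryos. The bounds of the libraries were apart for each of these genes. The log2 ratios were -5.48 for Irgm1, -4.54 for Igtp and -3.30 for Irgm2, and Irgm1 was the third lowest of the 1942 genes counted, Igtp the 16th and Irgm2 the 27th.

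The effectors were lower in Adar1-/- Mavs-/- embryos too, with lower levels in Adar1-/- embryos than Irgm1 and Igtp. Tgtp1 had 0.00612 FPKM (bounds 0 to 0.0232) in Adar1-/- Mavs-/- embryos, against 9.36 FPKM (8.15 to 10.6) in Adar1-/- embryos. Tgtp2 had 0.00616 FPKM (0 to 0.0234) in Adar1-/- Mavs-/- embryos, against 8.50 FPKM (6.14 to 10.9) in Adar1-/- embryos. Each of the Adar1-/- Mavs-/- values stands for 97 sequenced bases (coverage times isoform length). The pair summed to 0.0123 FPKM in Adar1-/- Mavs-/- embryos and 17.9 FPKM in Adar1-/- embryos, with a log2 ratio of -4.21 for the sum, -3.36 for Tgtp1 and -3.24 for Tgtp2. Ifi47, the effector of the Irgd class, had 0.185 FPKM (0.0814 to 0.333) in Adar1-/- Mavs-/- embryos, against 6.97 FPKM (6.27 to 7.67) in Adar1-/- embryos, with a log2 ratio of -2.68. The bounds were apart for these 3 genes as well.

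All 6 measured members were thus at least 2-fold lower in Adar1-/- Mavs-/- embryos, where 9.63% of the 1942 genes counted (at least 1 FPKM in either library) were, and 6.69% were at least 2-fold higher. With bounds apart as well, the count was 6 of 6, beside 8.5% of the genes counted. The median log2 ratio was -3.33 over the members and -0.108 over all genes counted. The genotype contrast chose the members, so nothing is read from these counts. Without a pseudocount the scaled difference ran from 28.1-fold for Ifi47 through 44.8-fold for Igtp, 68.5-fold for Irgm2 and 119.7-fold for Irgm1 to 1032-fold for Tgtp2 and 1143-fold for Tgtp1, all lower in Adar1-/- Mavs-/- embryos. The Tgtp1 and Tgtp2 values rest on 97 sequenced bases each in Adar1-/- Mavs-/- embryos.

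**Figure D2:**
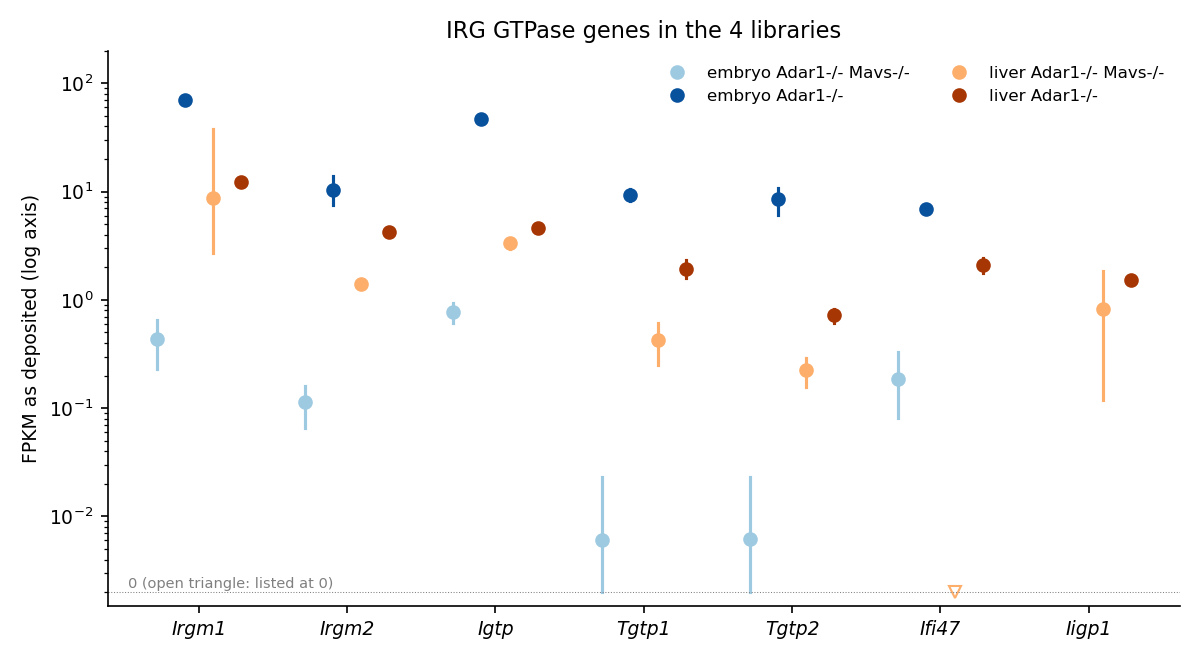
FPKM of each IRG gene in the 4 libraries, on a log axis, with the deposited bounds as vertical lines (a lower bound of 0 is drawn to the dotted line). In embryos the Adar1-/- Mavs-/- points lie between 0.00612 and 0.777 FPKM and the Adar1-/- points between 6.97 and 69.9 FPKM. In liver the points of a gene lie closer together, and Ifi47 is listed at 0 in dKO-labelled liver.

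In liver the same genes were closer between the libraries. Irgm1 had 8.66 FPKM (bounds 2.72 to 38.0) in dKO-labelled liver, against 12.2 FPKM (11.49 to 12.9) in KO-labelled liver. The bounds overlap. Of the 5 Irgm1 isoforms counted in dKO-labelled liver, 2 have a failed estimate and 3 carry the status for low data. Igtp had 3.36 FPKM (2.95 to 3.77) against 4.62 FPKM (4.27 to 4.96), in the same order, and Irgm2 had 1.41 FPKM (1.26 to 1.56) against 4.28 FPKM (3.99 to 4.57). The bounds were apart for Igtp and Irgm2. The log2 ratios were -0.46 for Irgm1, -0.37 for Igtp and -1.13 for Irgm2, so on this scale Irgm2 was the regulator with the largest difference in liver and the smallest in embryos. The Irgm2 size depends on how assembled isoforms were assigned. Its KO-labelled value counts assembled isoforms of 1.06 and 0.405 FPKM. Inside its span, 3 isoforms without a symbol (2.32 FPKM) were left out in dKO-labelled liver, and 2 (1.81 FPKM) in KO-labelled liver. With transcript identifiers that carry a symbol only, its log2 ratio was -0.67.

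Among the effectors, Tgtp1 had 0.430 FPKM (bounds 0.250 to 0.609) in dKO-labelled liver, against 1.95 FPKM (1.58 to 2.31) in KO-labelled liver. Tgtp2 had 0.223 FPKM (0.157 to 0.289) against 0.722 FPKM (0.614 to 0.830) in the same order, below the filter of 1 FPKM. Both pairs of bounds were apart, and the log2 ratios were -1.05 for Tgtp1, -0.50 for Tgtp2 and -1.15 for their sum. Ifi47 was listed at 0 in all 3 annotated isoforms in dKO-labelled liver and at 2.10 FPKM (1.79 to 2.41) in KO-labelled liver, with a log2 ratio of -1.63 and no fold. Of the 3 isoforms in dKO-labelled liver, 1 carries the status for low data and 0 have a failed estimate. A listed 0 need not mean that no reads fell inside the gene's span. In dKO-labelled liver 2 assembled isoforms without a symbol lay inside the Ifi47 span, with 0.964 FPKM in all, and 3 such isoforms held 1.45 FPKM in KO-labelled liver.

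Iigp1, the most studied effector, was measured in liver only, at chr18:60535683-60552281 (mm9). It had 0.826 FPKM (bounds 0.120 to 1.84) in dKO-labelled liver, against 1.53 FPKM (1.36 to 1.70) in KO-labelled liver. The bounds overlap, and the log2 ratio was -0.48.

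Of the 7 members in liver, 3 were at least 2-fold lower in dKO-labelled liver (Ifi47, Irgm2 and Tgtp1), all with bounds apart. Beside them, 9.75% of the 13847 genes counted were at least 2-fold lower, 8.78% with bounds apart, and 6.54% were at least 2-fold higher. The median was -0.50 over the 7 members, -0.76 over the 6 members that were counted and -0.122 over all genes counted. The 6 chromosome 11 members summed to 14.1 FPKM in dKO-labelled liver and 25.9 FPKM in KO-labelled liver, 1.85-fold lower after scaling. The count rests on low values: it was 0 with a filter of 5 FPKM and 1 where isoforms without their own symbol were left out.

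**Figure D3:**
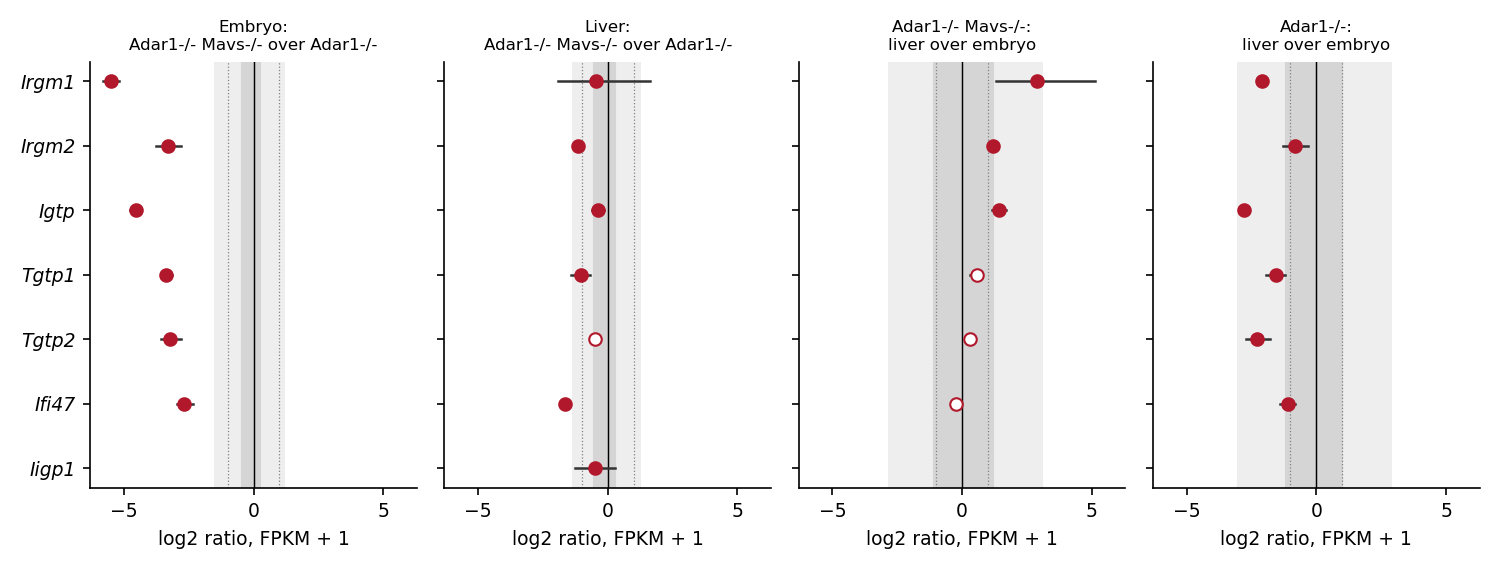
Log2 ratio of FPKM plus 1 for each IRG gene in 4 comparisons, 1 panel each. Points are the ratios, open where neither library reached 1 FPKM, black lines run between the ratios that the bounds allow, dotted lines mark 2-fold, and the grey bands hold the middle 50% (dark) and 90% (light) of all genes counted. The 6 embryo points lie left of the light band, and the liver points lie between -1.63 and -0.37.

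Tissue comparisons set E15.5 liver over E11.5 embryo, where tissue, age and strain label differ together and cannot be told apart. They use the part of the genome both tables hold, which is chromosomes 10 and 11 and chromosome 12 to 11.7 Mb. The factors were 1.116 (707 genes) for Adar1-/- Mavs-/- and 1.278 (871 genes) for Adar1-/-. They reuse the libraries above, so each is given by its own values. In the Adar1-/- Mavs-/- pair, Irgm1 had 8.66 FPKM (bounds 2.72 to 38.0) in dKO-labelled liver and 0.437 FPKM in embryos, Igtp 3.36 and 0.777 FPKM, and Irgm2 1.41 and 0.113 FPKM. The log2 ratios were 2.89, 1.42 and 1.21. In that pair 3 of 6 members were at least 2-fold higher in liver, where 29.1% of 2009 genes were, and the 3 others were under 1 FPKM in both libraries. The sum of the 6 members was 10.3-fold higher in liver.

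In the Adar1-/- pair the members lay the other way. Igtp had 4.62 FPKM in liver and 46.6 FPKM in embryos (log2 ratio -2.79), and Irgm1 had 12.2 FPKM in liver and 69.9 FPKM in embryos (-2.10). Tgtp2 gave -2.30, Tgtp1 -1.57, Ifi47 -1.11 and Irgm2 -0.81, and -2.10 was the value for Tgtp1 and Tgtp2 summed. At least 2-fold lower in liver were 5 of 6 members, with Irgm2 the exception, where 28.4% of 2130 genes were. The exception depends on the processing: Irgm2 was also past 2-fold, making 6 of 6, when the deposited FPKM were left unscaled (-1.11), converted to TPM (-2.21) or restricted to transcript identifiers that carry a symbol (-1.17). The sum of the 6 was 4.59-fold lower in liver. The median over the 6 members was 0.88 in the Adar1-/- Mavs-/- pair and -1.83 in the Adar1-/- pair, and over all genes counted it was 0.005 and -0.126. Only 3 members were counted in the Adar1-/- Mavs-/- pair, with a median of 1.42.

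The order of the members by level was alike in the libraries at its top. In Adar1-/- embryos Irgm1 stood first and Igtp second, with bounds apart, and Irgm2, Tgtp1, Tgtp2 and Ifi47 followed with overlapping bounds from each to the next. In KO-labelled liver the order was Irgm1, Igtp, Irgm2, Ifi47, Tgtp1, Iigp1 and Tgtp2. Igtp overlapped Irgm2, Ifi47 overlapped Tgtp1 and Tgtp1 overlapped Iigp1. In dKO-labelled liver Irgm1, Igtp and Irgm2 again led, with Irgm1 and Igtp overlapping. In Adar1-/- Mavs-/- embryos Igtp was above Irgm1, but their bounds overlapped. The 3 GMS genes held 87.0% of the summed FPKM of the 6 members in Adar1-/- Mavs-/- embryos and 83.6% in Adar1-/- embryos. In liver they held 95.4% in dKO-labelled liver and 81.6% in KO-labelled liver. Irgm1 alone held 28.7% in Adar1-/- Mavs-/- embryos and 46.1% in Adar1-/- embryos, and 61.5% in dKO-labelled liver and 47.1% in KO-labelled liver. The shares leave out assembled isoforms without a symbol. In Adar1-/- embryos these held 32.0 FPKM inside the Tgtp1 span and 8.84 FPKM inside the Tgtp2 span, so the GMS share there depends on that choice. In dKO-labelled liver the shares rest on an Irgm1 value with bounds of 2.72 to 38.0 FPKM and on Ifi47 listed at 0.

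The isoforms behind the sums differed by gene. All of the Igtp value came from ENSMUST00000035266 in both embryo libraries, and this isoform held 73.4% in dKO-labelled liver and 88.4% in KO-labelled liver. The Irgm1 value in Adar1-/- embryos was split between ENSMUST00000097271 with 34.1 FPKM, ENSMUST00000169066 (no symbol in the annotation, counted by overlap) with 30.2 FPKM and an assembled isoform with 5.66 FPKM. In liver ENSMUST00000169066 was listed at 0 in both libraries, and ENSMUST00000049519, at 0 in both embryo libraries, had 5.10 and 6.63 FPKM in dKO-labelled and KO-labelled liver. These isoforms have nearly the same ends, at chr11:48678749-48684869 and chr11:48678747-48684876 (mm9), with lengths of 2250 and 2259 bases. Both carry the status for low data in Adar1-/- embryos and in the liver libraries. In dKO-labelled liver the bounds of each ran from 0 to 13.9 FPKM, so which of the 2 similar isoforms holds the value is not settled.

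Short isoforms weigh on Tgtp2. In Adar1-/- embryos ENSMUST00000128411, 370 bases long, held 7.81 of its 8.50 FPKM, and the isoform of 2810 bases, ENSMUST00000046745, held 0.685 FPKM (bounds 0.480 to 0.891). The longer isoform had 0.722 FPKM in KO-labelled liver, so the tissue difference of Tgtp2 in the Adar1-/- pair rests on the short isoform. The longer isoform was at 0.00616 FPKM in Adar1-/- Mavs-/- embryos, below its bounds in Adar1-/- embryos. In Adar1-/- embryos 4 assembled isoforms without a symbol inside the Tgtp1 span added up to 32.0 FPKM, of which 25.02 FPKM came from a fragment of 166 bases, and 2 inside the Tgtp2 span added up to 8.84 FPKM. None of these entered the gene values, and in Adar1-/- Mavs-/- embryos there were none in either span. For Ifi47, the whole embryo Adar1-/- value lay in ENSMUST00000046704, which carries the status for low data. With isoforms of status OK alone, the Ifi47 log2 ratio in embryos was 0.19.

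**Figure D4:**
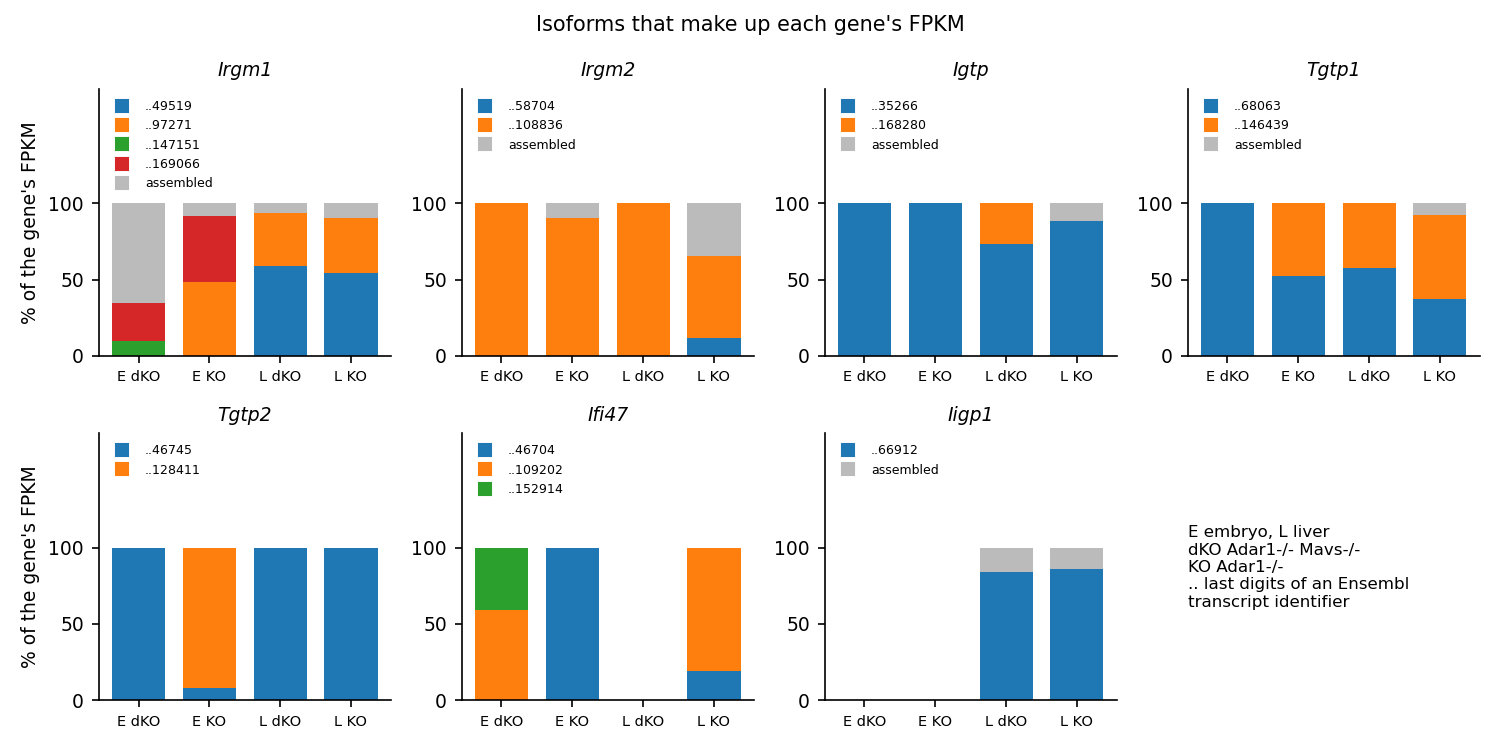
Share of each gene's FPKM by isoform, in percent, in the 4 libraries. Colours are transcripts with an Ensembl identifier and grey is assembled isoforms. Igtp rests on a single transcript in embryos, Tgtp2 rests on a short transcript in Adar1-/- embryos, and Ifi47 has no bar in dKO-labelled liver.

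The 6 members lie in 2 groups on chromosome 11 (mm9). Irgm1 (chr11:48675470-48685185), Tgtp1 (chr11:48798829-48807674), Tgtp2 (chr11:48870696-48877708) and Ifi47 (chr11:48890089-48910476) form the first, and Igtp (chr11:58013058-58021093) and Irgm2 (chr11:58028530-58036282) the second. Other named genes within 250 kb of a member and with at least 1 FPKM in either library numbered 19 in embryos, with a median log2 ratio of -0.19. Of these, 2 were at least 2-fold lower in Adar1-/- Mavs-/- embryos. Psme2b, a copy of the gene for the proteasome activator PA28 beta whose reads may be shared with that gene, had 32.9 FPKM in Adar1-/- Mavs-/- and 91.1 FPKM in Adar1-/- embryos (-1.03). Sh3bp5l had 19.1 and 67.2 FPKM (-1.36). Only 1700047K16Rik was at least 2-fold higher, at 1.07 FPKM in Adar1-/- Mavs-/- embryos and listed at 0 in Adar1-/- embryos. Gm12250 (Irgb10), an IRG effector next to Igtp, had 0.270 FPKM in Adar1-/- Mavs-/- and 1.49 FPKM in Adar1-/- embryos (-0.87).

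In liver 21 neighbours were counted, with a median of -0.24. Larp1 had 11.7 FPKM in dKO-labelled liver and 28.4 FPKM in KO-labelled liver (-1.22). Gm12252 and Gm12246 were listed at 0 in dKO-labelled liver and had 2.13 and 1.11 FPKM in KO-labelled liver. None of the 21 was at least 2-fold higher, and no other was at least 2-fold lower. The embryo log2 ratios of the members lay below those of the counted genes between and around them. The genotype contrast chose the members but not the neighbours, so nothing is read from that difference. In liver, Igtp and Irgm2 lay within the range of the neighbours of their own group (-1.65 to 0.29). Neighbours of the Irgm1 group ran from -0.79 to 0.58 in liver. Irgm1 and Tgtp2 lay within that range, whereas Ifi47 (-1.63) and Tgtp1 (-1.05) lay below it.

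**Figure D5:**
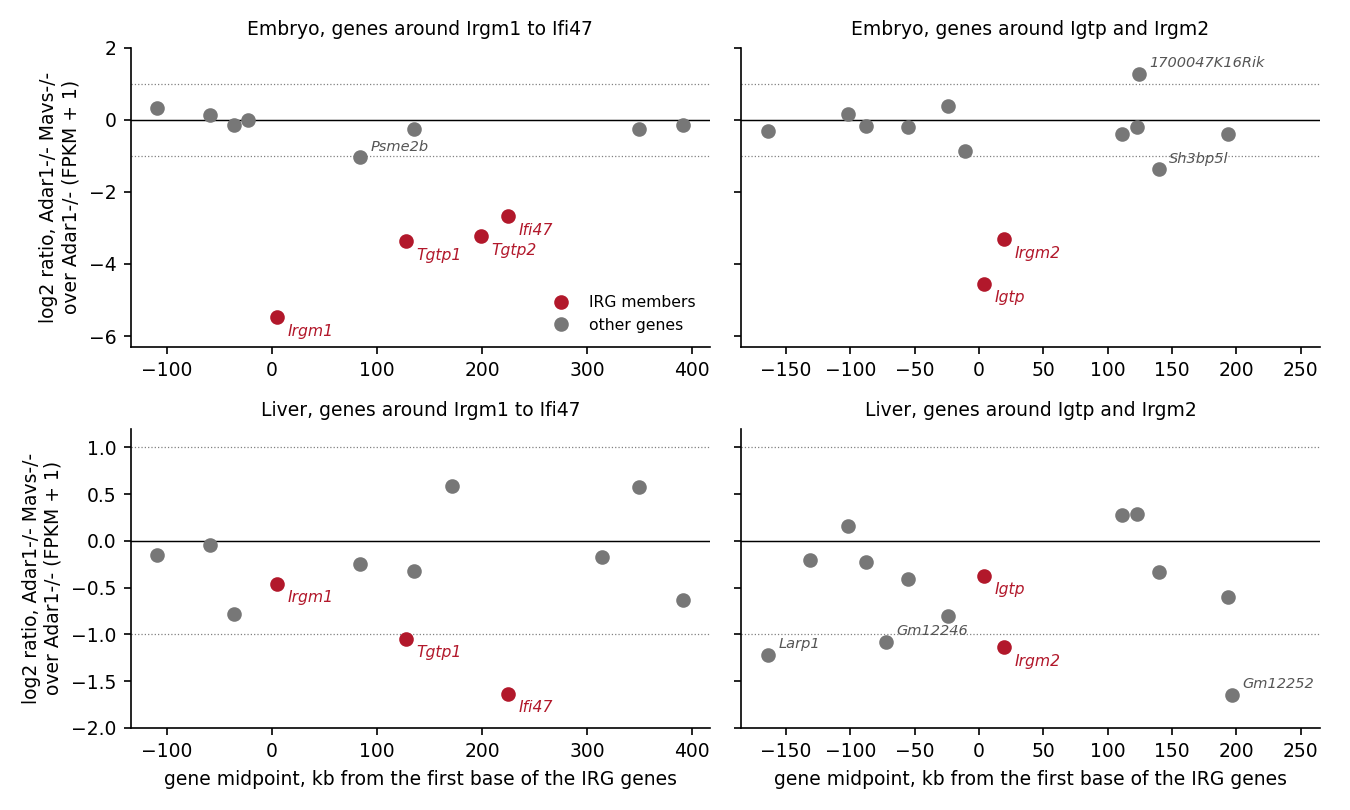
Log2 ratio, Adar1-/- Mavs-/- over Adar1-/-, of IRG members (red) and their neighbours (grey) against distance in kb from the first base of each IRG group, with embryos above and liver below on their own y scales. In embryos the 6 members lie between -5.48 and -2.68 and the 19 neighbours between -1.36 and 1.28. In liver the 21 neighbours lie between -1.65 and 0.58.

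Among ligands, receptors and transcription factors known to induce IRG genes, the embryo tables hold 5 of the 21 listed. Irf1, the transcription factor that binds ISRE-like sites, had 1.72 FPKM in Adar1-/- Mavs-/- embryos and 23.4 FPKM in Adar1-/- embryos, with a log2 ratio of -2.89 and bounds apart. Stat2, a transcription factor of the type I interferon response, had 2.44 and 7.06 FPKM (-0.92). Ifngr1, the ligand-binding chain of the interferon gamma receptor, had 4.30 and 4.53 FPKM (0.29), and Socs3, a feedback inhibitor of JAK signalling, had 3.73 and 5.93 FPKM (-0.21). Ifng was listed at 0 in both. Of the 4 counted, 1 was at least 2-fold lower and none higher, and their median was -0.57, which ranged from -2.59 to -0.21 with the processing.

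In liver 14 of the 20 inducers measured were counted, and their median was -0.12, with a sign that turned under other settings (-0.40 to 0.14). None was at least 2-fold lower, and Ifnar2, a chain of the type I interferon receptor, was the 1 at least 2-fold higher, at 26.7 FPKM in dKO-labelled liver and 12.0 FPKM in KO-labelled liver (1.09). Stat2 had 1.44 and 3.81 FPKM (-0.98), Irf1 2.81 and 4.25 FPKM (-0.47) and Irf9 6.60 and 5.88 FPKM (0.14), in the same order. Ifnb1, Ifna4 and Irf7 were listed at 0 in both libraries. Ifng was at 0.0506 FPKM in dKO-labelled liver and listed at 0 in the other.

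Guanylate-binding proteins and other large GTPases, which interferon induces and which act beside IRG proteins at parasite vacuoles, were measured in liver only. Of 9 counted, none was at least 2-fold lower or higher, and their median was 0.14, which fell below 0 with TPM (-0.08) and with isoforms of status OK only (-0.09). Gbp4 had 0.890 FPKM in dKO-labelled liver and 2.38 FPKM in KO-labelled liver (-0.84), Mx2, an antiviral GTPase, had 0.246 and 1.12 FPKM (-0.77), and Gbp2 had 3.18 and 1.96 FPKM (0.50). Among the other IRG genes, 3 were counted in liver and none passed 2-fold. 9930111J21Rik2 had 2.27 and 1.18 FPKM (0.58), Irgq, an IRG relative not known to respond to interferon, had 0.717 and 1.75 FPKM (-0.68), and Gm4951 had 0.647 and 1.29 FPKM (-0.48).

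Autophagy proteins of the ATG8 conjugation machinery help place IRG effectors on vacuoles. In embryos 4 were counted and 1 was at least 2-fold higher: Sqstm1, the autophagy receptor p62, at 138 FPKM in Adar1-/- Mavs-/- embryos and 89.9 FPKM in Adar1-/- embryos (1.03), though not before the Adar1-/- Mavs-/- value was scaled. The other 3, Atg5, Becn1 and the ATG8 family member Gabarap, lay between -0.32 and 0.24. In liver 10 were counted, with a median of 0.01. Atg16l1, part of the enzyme complex that attaches ATG8 proteins to lipid, was the 1 past 2-fold, at 13.1 FPKM in dKO-labelled liver and 4.61 FPKM in KO-labelled liver (1.33).

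The genes with the pattern most like the members' mean over the 4 libraries were sought among 2259 genes of the shared chromosomes, by distance between centred log2 values. The distance of all these genes had a median of 2.97. The closest that are no member were Lgals3bp (0.524), Xaf1 (0.648), Rdm1 (0.752), Rnf215 (0.761), Irf1 (0.786), Gm15664 (0.959), Cnksr3 (1.01) and Kctd2 (1.07). Lgals3bp, a secreted galectin-3-binding glycoprotein, had 0.221 FPKM in Adar1-/- Mavs-/- embryos and 19.8 FPKM in Adar1-/- embryos, and 2.50 and 5.18 FPKM in dKO-labelled and KO-labelled liver. Xaf1, which binds the apoptosis inhibitor XIAP, had 0.299 and 15.3 FPKM in embryos and 0.685 and 1.66 FPKM in liver, in the same order. Members themselves lay from 0.344 (Tgtp1) to 1.49 (Irgm1) from their mean, so Lgals3bp was closer to the mean than 5 of the 6 members. Kctd2 and Rnf215 departed from the members in liver. Kctd2 had 3.09 FPKM in dKO-labelled liver and 3.07 FPKM in KO-labelled liver, and Rnf215 had 1.48 FPKM in dKO-labelled liver and 1.29 FPKM in KO-labelled liver (log2 ratio 0.11). The measure uses the genotype contrast that chose the members, over 4 libraries, and is a description.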

How the data were processed

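Total RNA from whole embryos and embryonic livers was sequenced, 1 library in each of 4 groups taken from the genotype and source labels. The authors deposited FPKM per isoform with a lower and an upper bound, an isoform status and a coverage value (mean read depth), per the file headers. Per the submitters' processing notes, TopHat 1.4.0, Cufflinks 2.2.1 and mm9 were used, in roles the notes do not give. How multiply mapped reads and strand were treated is not stated.

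Symbols came from GENCODE M21 through Ensembl transcript identifiers, of which 86.7% to 90.2% matched. Isoforms without their own symbol were assigned within their Cufflinks gene by overlap, FPKM were summed per gene, and bounds were combined as the root of summed squared distances. Ratios are log2 of FPKM plus a pseudocount of 1, which understates differences of low genes, counted from 1 FPKM in either library and named 2-fold from a log2 ratio of 1. The ratio step was tested on simulated data. No test was possible with 1 library per group. Members and lists were chosen with earlier results of these data known. All members, pathway genes of at least 1 FPKM (examples and medians in the text), the 8 genes most alike and neighbours past 2-fold are the genes the rule names. Of the inducers that the rule names, 1 is not reported here. Class motifs were read in GENCODE M21 coding sequences, as no protein table was used here. Python 3.11.15, pandas 2.3.3, numpy 2.4.6 and biopython 1.88 were used. The 9 alternatives tried are described with their effect in the closing section.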

Additional observations from a re-analysis of the deposited data

Results flagged for a closer look

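A liver over embryo ratio of opposite direction in the Adar1-/- Mavs-/- pair and the Adar1-/- pair was flagged for 4 genes. Other genes reversed without being flagged. Among members these were Tgtp1 (0.56 and -1.57, in that order) and Tgtp2 (0.31 and -2.30). Both were under 1 FPKM in each library of the Adar1-/- Mavs-/- pair. Ifi47 did not reverse (-0.25 and -1.11). The flagged genes follow. The log2 ratio was 2.89 in the Adar1-/- Mavs-/- pair and -2.10 in the Adar1-/- pair for Irgm1 (a difference of 4.99), 1.42 and -2.79 for Igtp (4.20), 1.21 and -0.81 for Irgm2 (2.03), and 0.61 and -1.93 for the transcription factor Irf1 (2.53). The liver libraries in these pairs are the dKO-labelled and the KO-labelled one. The genotype comparisons use the same 4 libraries. Apart from scaling, these differences therefore restate how far the genotype ratio differed between embryo and liver. The members were chosen by the genotype contrast. The log2 ratio of Gabarap was 0.16 for dKO-labelled over KO-labelled liver and -0.32 for Adar1-/- Mavs-/- over Adar1-/- embryos (0.47). Its deposited bounds overlapped between the liver libraries (log2 ratio -0.04 to 0.34 from the bounds). The liver direction also depends on the label of dKO-labelled liver, which the Adar values cannot settle. With 1 library per group none of these differences was tested.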

How the results depend on the processing

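No paired analysis was possible because each group has 1 library. Of 9 alternatives, the 4 that set the pseudocount or the filter cannot turn the direction of a member. Over the other 5, direction was kept in 29 of 30 values in embryos, 34 of 34 in liver, 29 of 30 for tissue in Adar1-/- and 29 of 29 for tissue in Adar1-/- Mavs-/-. The liver and Adar1-/- Mavs-/- tissue tallies lack Irgm1 with isoforms of status OK only. None of its counted isoforms in dKO-labelled liver has that status, so its direction could not be checked there. The exceptions were Ifi47 with isoforms of status OK only, at 0.19 in embryos and 1.62 for tissue in Adar1-/-. That setting moved the member medians to -2.89 in embryos, -1.48 for tissue in Adar1-/- and 0.36 for tissue in Adar1-/- Mavs-/-, and put 1 member at least 2-fold higher for tissue in Adar1-/-. The Irgm1 ratio in embryos was -2.22 there, since its main isoforms carry the low data status. A pseudocount of 0.1 gave medians of -5.85 in embryos, -1.35 in liver and 2.29 for tissue in Adar1-/- Mavs-/-, with 2112 genes lower in liver, and 0.5 gave -4.21, -0.76 and 1.34. FPKM as deposited shifted embryo log2 ratios by -0.42 and gave 319 genes lower and 82 higher, and shifted the tissue ratios by -0.16 in Adar1-/- Mavs-/- and -0.35 in Adar1-/-. Scaling to TPM shifted them by -0.94 in embryos (735 lower, 56 higher), -0.32 in liver (2168 lower, member median -0.74), -1.47 for tissue in Adar1-/- Mavs-/- (1036 lower, 209 higher, 1 member higher, median 0.31) and -1.90 for tissue in Adar1-/- (1358 lower, 129 higher, median -2.78). Upper quartile scaling shifted them by 0.14 in embryos and 0.13 in liver. A filter of 5 FPKM left 0 members lower in liver (805 genes lower, 531 higher) and 1 higher for tissue in Adar1-/- Mavs-/-. Transcript identifiers with a symbol alone gave 1 member lower in liver and a median of -1.43 for tissue in Adar1-/-. The median of the inducers in embryos moved to -2.59 with those identifiers, -1.26 with TPM, -0.89 with FPKM as deposited and -0.21 with no filter. In liver the inducers gave -0.40 with TPM and 0.14 with a filter of 5 FPKM or status OK, and the autophagy proteins -0.29 with TPM. The cause of these movements was not tested beyond what each setting's construction shows.

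Depth limits the lowest values: Tgtp1 and Tgtp2 in Adar1-/- Mavs-/- embryos rest on 97 sequenced bases each. A listed 0 need not mean that no reads fell inside the gene's span. Bounds cover estimation within a library, so no difference can be set against a spread between animals.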
